A study of Mus musculus with 8 samples.

Results

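Slpi, Dio2 and Fibin are 3 of the 49868 gene-named loci in an RNA sequencing table of mouse mesenchymal stem cells (MSc) with and without knockout of the hyaluronan synthase genes. The rows carrying exactly these names were taken. Each name stood on 1 locus, all 3 passed the filter on low values, and all 3 were chosen by their lower FPKM in these same Has-tKO libraries, so their own difference is described here and not tested. The cells came from femurs and tibiae of 4 wildtype (C57Bl6/J) and 4 Has-tKO mice, the latter with constitutive knockouts of the hyaluronan synthase genes Has1 and Has3 and a Cre-induced knockout of Has2. Cells of both genotypes were kept for 4 passages, received 4-hydroxytamoxifen in 2 exposures of 48 h and were sampled on day 7 of osteogenic culture, with 1 library per mouse. Neither the Cre driver, nor whether wildtype cells carry it, nor the age of the mice is stated in the labels.

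The 3 genes encode proteins with separate tasks. Slpi, secretory leukocyte protease inhibitor, is a small secreted WAP-domain protein that blocks neutrophil elastase and cathepsin G and protects progranulin from cleavage. It is best known from epithelia, neutrophils and macrophages, and in osteoblasts it is induced by parathyroid hormone. Dio2, type 2 iodothyronine deiodinase, is a selenoprotein of the endoplasmic reticulum that turns the prohormone thyroxine into the active hormone T₃ inside the cell. Its gene is switched on by cyclic AMP, and its enzyme is removed by ubiquitination. Fibin, fin bud initiation factor, is a secreted protein first described in the fish embryo, where it acts downstream of retinoic acid and Wnt signals in the onset of the pectoral fin bud.

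The start regions of the 3 genes are shown because the genes were lower in the same 4 libraries, and because the known response of Dio2 to cyclic AMP has a recognisable letter pattern. Each RefSeq entry (build GRCm38.p6) spans 250 bases before to 50 bases after the annotated start, on the minus strand, at chr2:164356458-164356757 for Slpi, chr12:90738989-90739288 for Dio2 and chr2:110362944-110363243 for Fibin. Capitals mark every match, on either strand, to the motifs searched.
Slpi: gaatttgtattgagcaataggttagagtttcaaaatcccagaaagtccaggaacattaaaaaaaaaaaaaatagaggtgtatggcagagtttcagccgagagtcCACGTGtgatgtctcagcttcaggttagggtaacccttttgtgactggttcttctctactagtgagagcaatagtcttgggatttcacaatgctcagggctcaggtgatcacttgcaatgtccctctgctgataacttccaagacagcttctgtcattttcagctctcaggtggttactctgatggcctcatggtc
Dio2: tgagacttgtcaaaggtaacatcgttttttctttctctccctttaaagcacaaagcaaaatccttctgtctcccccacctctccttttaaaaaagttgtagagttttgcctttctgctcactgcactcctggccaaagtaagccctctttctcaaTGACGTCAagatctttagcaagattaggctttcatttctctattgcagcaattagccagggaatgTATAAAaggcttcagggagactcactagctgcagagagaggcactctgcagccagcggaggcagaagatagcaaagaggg
Fibin: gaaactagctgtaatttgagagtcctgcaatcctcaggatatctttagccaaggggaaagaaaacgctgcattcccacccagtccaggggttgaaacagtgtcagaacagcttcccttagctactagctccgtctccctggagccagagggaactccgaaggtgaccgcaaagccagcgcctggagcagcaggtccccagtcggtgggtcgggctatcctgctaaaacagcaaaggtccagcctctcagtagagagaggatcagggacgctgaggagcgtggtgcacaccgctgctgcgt

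Dio2 holds the full cAMP response element TGACGTCA, which begins 95 bases before the start, and a TATA box (TATAAA) that begins 30 bases before it. The first was found in 1.79% and the second in 13.6% of 32851 promoter entries of the same length. Slpi holds an E-box (CACGTG) that begins 146 bases before its start, a motif present in 7.15% of the entries. The nuclear receptor half-site AGGTCA (16.3% of entries), the RUNX motif TGTGGT (16.8%), the AP-1 motif TGANTCA (7.81%), CCAAT (37.4%), the GC box GGGCGG (35.7%) and the NF-kappaB motif (0.155%) were in none of the 3 windows. No motif was shared by any pair of the 3 genes, and Fibin had no match to any of them. The Fibin window was the richest in G and C (56.3%, with 11 CpG), against 43.3% with 2 CpG in Slpi and 44.7% with 3 CpG in Dio2. The median over all entries was 52.7% with 7 CpG. A letter match describes the sequence only.

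Slpi and Fibin lie on chromosome 2 and Dio2 on chromosome 12, none of them on the chromosomes of Has1 (17), Has2 (15) and Has3 (8). Of the 12 nearest genes named in the table, 2 on either side of each, Sys1 beside Slpi was the single one that passed the filter (log2 fold change 0.30, limma adjusted p = 0.373). Rbpjl beside Slpi had 0.297 ± 0.0885 FPKM in wildtype against 0.131 ± 0.0272 FPKM in Has-tKO, and the remaining 10 had group means of at most 0.0848 FPKM. The GENCODE M21 annotation places the noncoding gene Gm26512 over the start of Dio2 on the opposite strand, and without strand information its reads could count for Dio2. Gm26512 itself lay at 0.0427 to 0.235 FPKM in wildtype against 0 to 0.0189 FPKM in Has-tKO. The part of its reads in the level of Dio2 was not tested.

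Levels are FPKM as deposited, that is, fragments per kilobase of transcript, scaled to the mapped fragments of the library. For genes with 1 annotated transcript, FPKM multiplied by transcript length fell on whole multiples of a fixed step in most low values. The share was 86.0% to 88.4% in wildtype and 85.2% to 89.7% in Has-tKO (within 0.05 of a whole number). In each library the step with the largest share was taken. Chance gives 10% for a step set beforehand, and more for one so taken. If that step is 1 aligned base, the libraries held 12.8 to 15 gigabases in wildtype and 10.9 to 17.7 gigabases in Has-tKO, and FPKM divided by the step gives the mean coverage of a transcript. That coverage was 189 to 300 for Slpi in wildtype and 40.3 to 133 in Has-tKO. It was 24.0 to 57.4 and 7.70 to 20.4 for Dio2, and 34.7 to 45.5 and 5.73 to 22.8 for Fibin. Wildtype 1 stood apart, with a median-ratio size factor of 0.656 where the other 7 libraries had 0.993 to 1.13. In wildtype 1, 61.5% of the FPKM lay in loci without a name, against 45.4% to 47.9% in the other wildtype libraries. It had 8327 named loci at 1 FPKM or more, against 9679 to 9906. Has-tKO 4 had 56.4% in unnamed loci, against 47.0% to 48.7% in the other Has-tKO libraries. Values are also given after division by the size factors, which leaves shares within a library unchanged. Of the targeted genes, Has3 alone carries a name in the table, at 0.236 to 0.466 FPKM in wildtype and 0.150 to 0.663 FPKM in Has-tKO. Its mean was not lower in Has-tKO (0.503 FPKM, against 0.378 FPKM in wildtype), and a level this low checks no label.

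All 3 genes stood at about the same fraction of the wildtype level in Has-tKO. The Has-tKO mean was 34.1% of the wildtype mean for Slpi, 31.8% for Dio2 and 31.6% for Fibin. For each gene the highest Has-tKO library lay below the lowest wildtype library, as it did for 1.53% of the 9916 tested genes, and for 6.52% after scaling. The reverse, every Has-tKO library above every wildtype library, held for 12.0% and for 6.63% after scaling. These differences chose the genes, so nothing is read from the shares. In the fit over all tested genes, limma at an adjusted p below 0.05 called 1.77% (157 higher and 19 lower), and after scaling 2.77% (158 higher and 117 lower). Scaling moved the median log2 fold change of all tested genes from 0.16 to -0.01.

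Slpi, the protease inhibitor, had 23.2, 15.7, 15 and 14.8 FPKM in wildtype 1 to 4 and 5.84, 3.05, 7.52 and 7.01 FPKM in Has-tKO 1 to 4. Wildtype 1 was high, the other wildtype libraries lay close together, and Has-tKO 2 was the lowest of all. The means were 17.2 ± 4.04 FPKM and 5.85 ± 2.00 FPKM (SD, n = 4 each). The log2 fold change on the log2(FPKM + 1) scale was -1.44 (SE 0.24), rank 4 from the lowest of the tested genes, and the lowest wildtype library exceeded the highest Has-tKO library 1.97-fold. After scaling, wildtype 1 rose to 35.4 FPKM beside 14.1 to 14.9 FPKM in the other wildtype libraries, and the log2 fold change was -1.64 (SE 0.33). With wildtype 1 left out as well it was -1.33.

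Dio2, the activating deiodinase, had 1.86, 3.84, 3.68 and 3.45 FPKM in wildtype 1 to 4 and 0.571, 1.36, 1.15 and 0.988 FPKM in Has-tKO 1 to 4. Here wildtype 1 was the low library of its group, and the gap to the highest Has-tKO library was narrow (1.36-fold). The means were 3.21 ± 0.913 FPKM and 1.02 ± 0.336 FPKM, with a log2 fold change of -1.04 (SE 0.21). Scaling brought wildtype 1 to 2.83 FPKM, close to the 3.47 to 3.51 FPKM of the other wildtype libraries, and widened the gap to 2.34-fold with a log2 fold change of -1.17 (SE 0.14).

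Fibin, the fin bud factor, had 2.68, 2.71, 2.81 and 3.56 FPKM in wildtype 1 to 4 and 0.617, 1.29, 1.29 and 0.528 FPKM in Has-tKO 1 to 4. The wildtype libraries were tight apart from a higher wildtype 4, while the Has-tKO libraries fell into 2 low and 2 higher ones. The means were 2.94 ± 0.417 FPKM and 0.931 ± 0.416 FPKM, with a gap of 2.08-fold and a log2 fold change of -1.05 (SE 0.18), or -1.19 (SE 0.18) after scaling. Because Dio2 and Fibin lie near 1 FPKM, the added 1 shrinks their change. Without it the log2 difference of the means of log values was -1.61 for Slpi, -1.67 for Dio2 and -1.77 for Fibin.

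**Figure D1:**
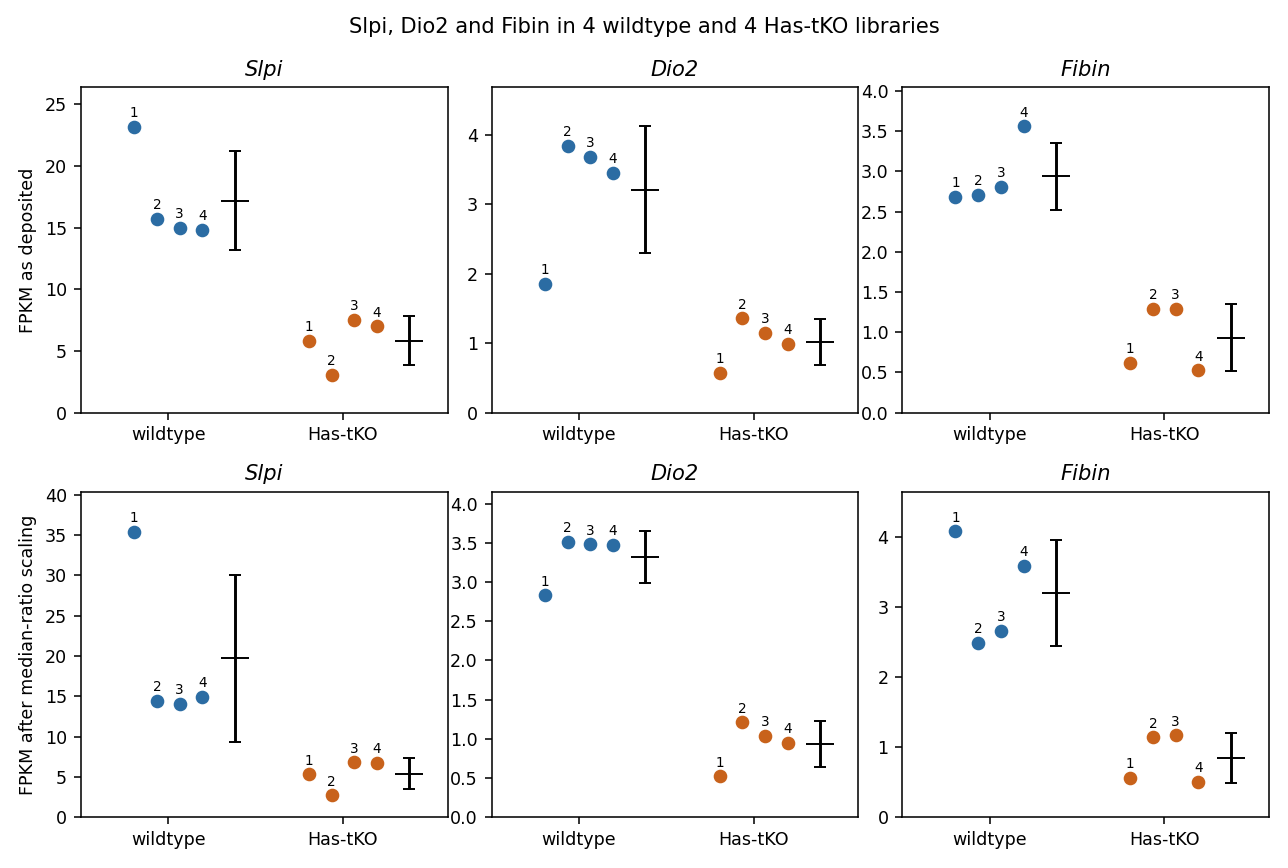
FPKM of Slpi, Dio2 and Fibin (vertical axes, from 0) in each wildtype (blue) and Has-tKO (orange) library, as deposited in the top row and after median-ratio scaling in the bottom row. Points are libraries with their replicate number, and black bars are the mean ± SD of 4 libraries. No Has-tKO point reaches a wildtype point, and wildtype 1 is high for Slpi (23.2 FPKM) but low for Dio2 (1.86 FPKM).

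Within a genotype the 3 genes did not follow the same order of mice. The lowest Has-tKO library was replicate 2 for Slpi, replicate 1 for Dio2 and replicate 4 for Fibin. In wildtype, replicate 1 had the highest Slpi and the lowest Dio2 value. The ratio of Slpi to Dio2 within a library, which no scaling between libraries can change, was 12.5 in wildtype 1 and 4.06 to 4.30 in wildtype 2 to 4, and ran from 2.24 to 10.2 in Has-tKO. The ratio of Dio2 to Fibin was 0.693 to 1.41 in wildtype and 0.894 to 1.87 in Has-tKO. Both ratios overlapped between the genotypes.

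How the spread between mice compared between the genotypes depended on the scaling. Unscaled, the coefficient of variation was 23.6% in wildtype and 34.1% in Has-tKO for Slpi, 28.5% and 33.0% for Dio2, and 14.2% and 44.6% for Fibin. After scaling it was 53.0% and 35.6% for Slpi, so that the order turned, 9.92% and 31.6% for Dio2, and 23.8% and 42.4% for Fibin. Spread on the log2 scale was set beside tested genes whose mean over all 8 libraries lay within 0.5 log2 units. The group means of the 3 genes lay below their matching mean in Has-tKO and above it in wildtype. The SD of Slpi in Has-tKO was 0.49, where 1671 such genes had a median SD of 0.17. Fibin had an SD of 0.32 beside a median of 0.21 over 3845 such genes, and Dio2 0.25 beside 0.21 over 3877. After scaling the Has-tKO values were 0.51 beside 0.17 for Slpi, 0.28 beside 0.20 for Fibin and 0.23 beside 0.20 for Dio2. In wildtype, Slpi (0.29, median 0.35) and Fibin (0.15, median 0.28) lay below such genes and Dio2 (0.35, median 0.28) above. Scaling turned all 3 wildtype orders, with Slpi at 0.62 and Fibin at 0.26 above a median of 0.22, and Dio2 at 0.11 below a median of 0.22. The difference in spread was not tested.

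The genes nearest in profile differed among the 3. Nearness is the mean absolute difference, over the 8 libraries, between log2(FPKM + 1) values centred on each gene's own mean, searched over 9830 loci with a mean of at least 1 FPKM. The values share libraries and any error in their scale. They also hold the genotype difference that chose the 3 genes, so genes lower in Has-tKO lie nearer by the measure itself. Dio2 was nearest to Alpl, the alkaline phosphatase of early mineralization (0.12), Ibsp, bone sialoprotein (0.13), and the cysteine dioxygenase Cdo1 (0.14). Alpl had 78.0, 144, 131 and 129 FPKM in wildtype 1 to 4 and 49.0, 70.9, 78.7 and 71.0 FPKM in Has-tKO 1 to 4, with the same low wildtype 1 and the same lowest Has-tKO 1 as Dio2. These values are unscaled, and wildtype 1, with a size factor of 0.656, was low for most tested genes. After scaling, Ibsp and Alpl (0.10 each) were still the nearest, followed by the cartilage transcription factor Sox9 (0.12), with Cdo1 next (0.15).

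Fibin was nearest to the lipoprotein receptor Vldlr (0.11), the ubiquitin ligase Rnf144a (0.14) and the G protein subunit Gnao1 (0.17), and the same 3 genes led after scaling. Vldlr had 6.43, 8.58, 7.73 and 9.94 FPKM in wildtype against 3.47, 3.87, 3.98 and 2.61 FPKM in Has-tKO, with the highest and the lowest value in the same libraries as Fibin. Slpi had no equally close partner, but the measure is not divided by a gene's own range. Centred values ran from -1.42 to 1.16 for Slpi, -0.87 to 0.75 for Dio2 and -0.84 to 0.74 for Fibin. The genes nearest to Slpi were Mgarp, a mitochondrial protein (0.25), the small secreted cartilage protein Otor (0.25) and the serine protease Htra1 (0.30). The same 3 led after scaling. Dio2 and Fibin lay 0.21 apart, and Slpi lay 0.38 from Dio2 and 0.37 from Fibin.

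**Figure D2:**
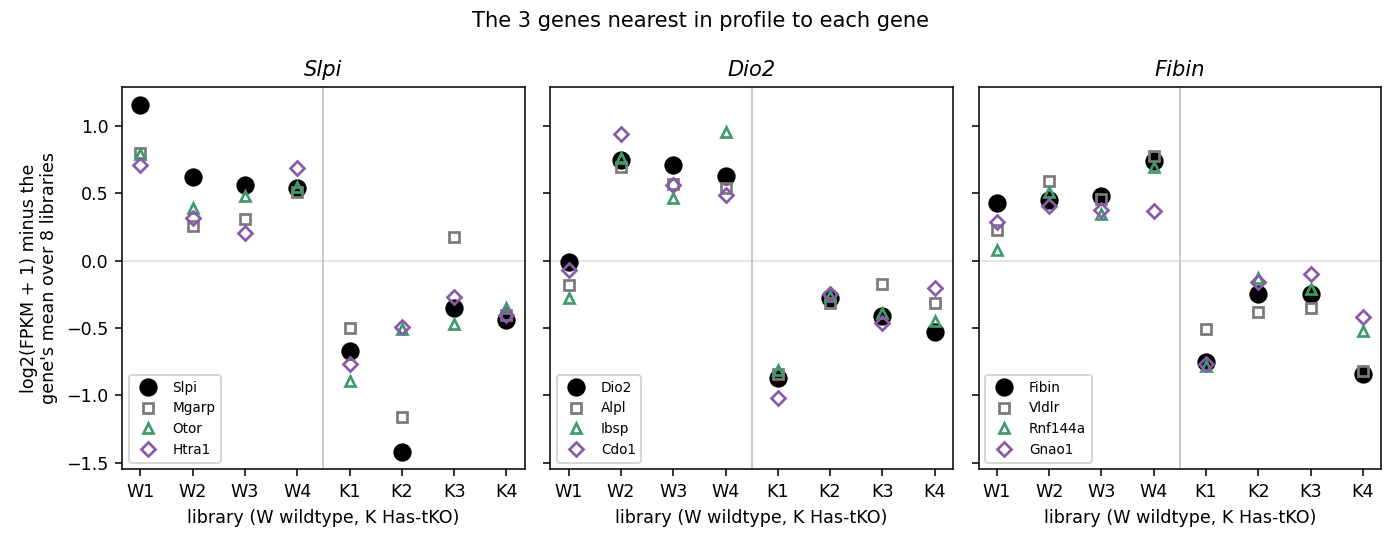
Centred log2(FPKM + 1) (vertical axis) in each library (W1 to W4 wildtype, K1 to K4 Has-tKO) for Slpi, Dio2 and Fibin (filled black circles) and the 3 genes nearest to each (open symbols). Alpl and Ibsp follow Dio2 in its low W1 and lowest K1, Vldlr follows Fibin into K1 and K4, and the lowest Slpi value, in K2, is shared in part by Mgarp alone. Values are unscaled, and W1 is low for most tested genes (size factor 0.656).

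Other WAP-domain inhibitors, the family of Slpi, mostly lay below the filter on low values. Of 27 listed besides Slpi, which include the Kunitz-type inhibitors Spint3, Spint4 and Spint5, 25 carried a name in the table. Only Wfdc17 passed the filter. Wfdc17, a WAP-domain protein of activated macrophages, had 5.98, 7.07, 10.5 and 4.58 FPKM in wildtype against 19.3, 9.27, 19.2 and 28.7 FPKM in Has-tKO libraries (a difference of 1.28 log2 units, SE 0.31, adjusted p = 0.0572 by limma). Its difference was opposite in sign to that of Slpi. Wfdc1 had 0.477 ± 0.273 FPKM and 0.769 ± 0.279 FPKM (exact permutation p = 0.171, two-sided), and Wfdc2 reached 0.1 FPKM in 1 library and was listed at 0 in the other 7.

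The proteases that Slpi is known to block were at or near 0. Elane, neutrophil elastase, and Ctsg, cathepsin G, were listed at 0 in all 8 libraries, and Prtn3, proteinase 3, had 0.181 ± 0.0441 and 0.148 ± 0.164 FPKM (exact permutation p = 0.629). Of 10 tested serine proteases and Slpi partners 0 rose and 1 fell, in a table where 1.58% of tested genes were called higher and 0.192% lower. It was Htra1, a secreted serine protease, with 39.6, 30.0, 27.8 and 39.1 FPKM in wildtype against 13.6, 16.7, 19.6 and 17.9 FPKM in Has-tKO libraries (a difference of -0.96 log2 units, SE 0.18, adjusted p = 0.0241 by limma, and 0.0404 after scaling). Grn, progranulin, had 148 ± 28.2 and 198 ± 31.0 FPKM (0.42, adjusted p = 0.263), and Anxa2, a membrane partner of Slpi, 105 ± 16.2 and 125 ± 4.99 FPKM (0.27, adjusted p = 0.421). The scramblase Plscr1, another partner, had 0.681 ± 0.377 and 1.06 ± 0.533 FPKM (exact permutation p = 0.286).

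Among 12 other secreted or cytosolic protease inhibitors tested, 2 rose and 0 fell, where 1.58% of all tested genes were called higher and 0.192% lower. Serpina3f, a serpin, went from 0.455 to 1.25 FPKM in wildtype to 2.61 to 3.25 FPKM in Has-tKO libraries (a difference of 1.17 log2 units, SE 0.17, adjusted p = 0.0109 by limma, and 0.0102 after scaling). Cstb, the cysteine protease inhibitor cystatin B, rose from a mean of 5.61 ± 1.72 to 12.2 ± 2.50 FPKM (1.01 log2 units, SE 0.22, adjusted p = 0.0413, and 0.0391 after scaling). The abundant Cst3, cystatin C, had 146 and 145 FPKM on average (-0.02, adjusted p = 0.959), and Serpine2, protease nexin, 67.7 and 55.7 FPKM (-0.23, adjusted p = 0.625). The list median was 0.12, beside 0.16 for all tested genes, and -0.05 after scaling. Serpina3f belongs to a cluster of near-identical copies, so its level is uncertain. With 1 library left out it passed in 6 of 8 fits (not without wildtype 4, adjusted p = 0.0523, or Has-tKO 1, 0.0528). Htra1 passed in 4 of 8 (not without wildtype 4, Has-tKO 1, 2 or 4, at 0.0713 to 0.124) and Cstb in 2 of 8, without wildtype 1 or 3 (at 0.0632 to 0.161 in the others).

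Thyroid hormone supply was measured around Dio2. Dio1, the other activating deiodinase, was listed at 0 in all 8 libraries, so Dio2 was the single activating deiodinase with a measured level. Dio3, the enzyme that inactivates the hormone, had 5.46, 8.71, 7.83 and 4.01 FPKM in wildtype against 7.70, 12.7, 8.13 and 6.27 FPKM in Has-tKO. The groups overlapped (a difference of 0.38 log2 units, SE 0.25, adjusted p = 0.464 by limma, and 0.18 after scaling, adjusted p = 0.727). Per length Dio3 stood above Dio2 in every library.

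Hormone transporters were measured too. Slc16a10, the transporter MCT10, had 1.23, 2.06, 2.81 and 1.62 FPKM in wildtype against 4.98, 4.10, 3.26 and 3.99 FPKM in Has-tKO (0.81, SE 0.19, limma adjusted p = 0.0550). The groups did not overlap, as for 12.0% of all tested genes with every Has-tKO library higher. Slc16a10 rose after scaling (0.66, SE 0.14, limma adjusted p = 0.0465). Slc7a5 and Slc7a8, amino acid exchangers that also carry the hormone, did not pass (0.40, adjusted p = 0.437, and 0.81, adjusted p = 0.143). The enzymes that remove or rescue Dio2 protein, Usp20 (0.04, and -0.14 after scaling), Usp33 (0.02, and -0.13), Marchf6 (0.26), Ube2j1 (0.21) and Ube2j2 (0.24), had adjusted p-values from 0.465 to 0.960. Of the 9 tested genes reported from this list besides Dio2, none passed unscaled and 1, Slc16a10, rose after scaling, where 1.59% of all tested genes were called higher and 1.18% lower.

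Receptors and targets of the hormone showed no called gene in either fit. Over all tested genes 1.77% were called unscaled and 2.77% after scaling, so this count is near the background. Of 26 tested, 14 had a positive and 12 a negative log2 fold change, with a median of 0.07 (-0.09 after scaling) beside 0.16 for all tested genes, and 5 had an unadjusted p below 0.05. Of all tested genes, 26.7% were negative unscaled and 51.1% after scaling. Thra, the main receptor of bone, had 11.7 ± 1.70 and 10.0 ± 0.491 FPKM (-0.20, SE 0.16, limma adjusted p = 0.543, and -0.41 after scaling, adjusted p = 0.0831), and Thrb 1.13 ± 0.487 and 0.755 ± 0.415 FPKM (-0.28, adjusted p = 0.546). The direct targets Klf9 (5.70 ± 1.27 and 4.85 ± 0.952 FPKM, -0.19, SE 0.20, limma adjusted p = 0.649) and Hr (3.23 ± 0.771 and 3.00 ± 0.478 FPKM, -0.07, SE 0.18, adjusted p = 0.869) overlapped between the genotypes. After scaling Klf9 lay at 5.79 to 6.33 FPKM in wildtype against 3.34 to 5.06 FPKM in Has-tKO, without overlap (-0.38, SE 0.12, limma adjusted p = 0.140). Thra did not overlap either (11 to 14.2 FPKM against 8.48 to 9.85 FPKM). After scaling 6.52% of all tested genes were lower in Has-tKO without overlap. Hr still overlapped (-0.24, SE 0.13, adjusted p = 0.360).

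**Figure D3:**
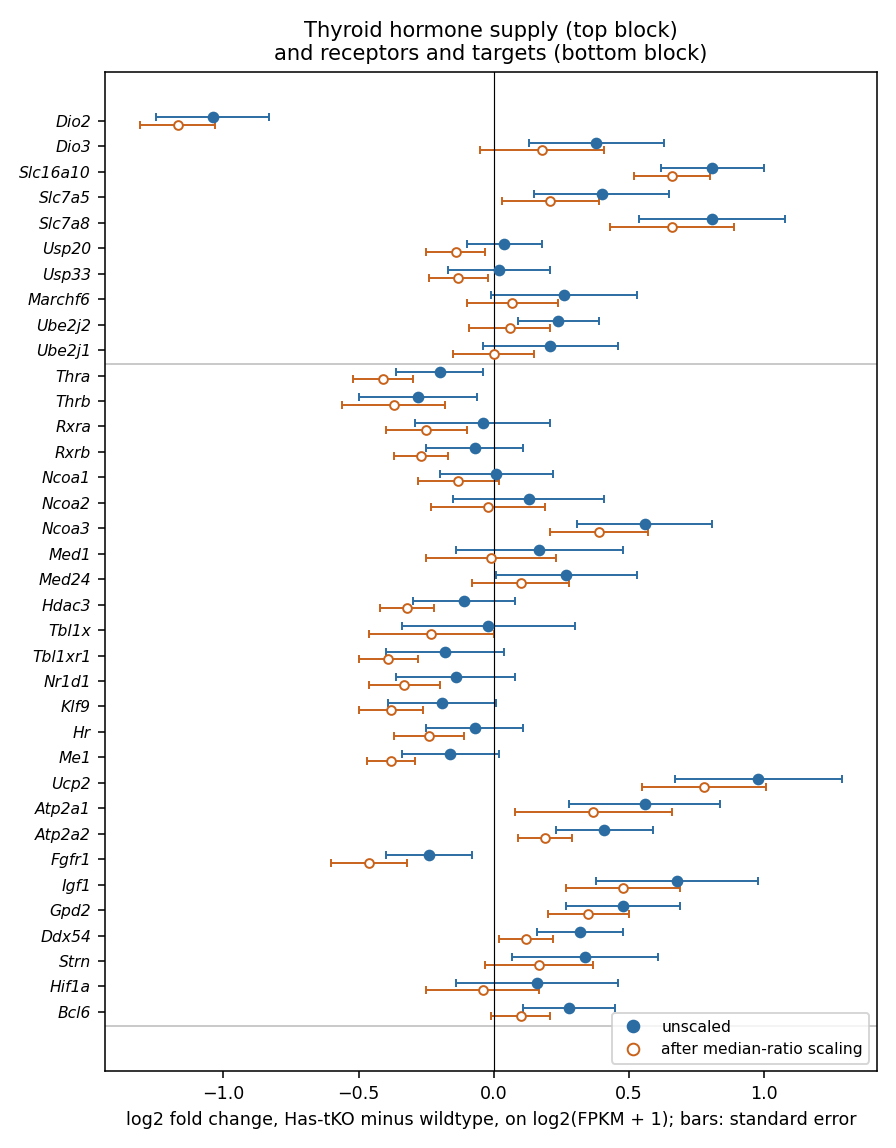
Log2 fold change (horizontal axis, Has-tKO minus wildtype on log2(FPKM + 1)) with its standard error for each tested gene reported for thyroid hormone supply and of its receptors and targets, unscaled (blue, filled) and after median-ratio scaling (orange, open). Dio2, chosen for its difference, lies at -1.04 and Slc16a10 at 0.81, while the receptors Thra and Thrb lie at -0.20 and -0.28.

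Dio2 is a selenoprotein. Of 31 tested genes of selenoproteins and their synthesis besides Dio2, 1 rose and 0 fell, where 1.58% of all tested genes were called higher and 0.192% lower, so these counts are near the background. The list had a median of 0.19. Msrb1, a methionine sulfoxide reductase, went from 10.3 to 11.8 FPKM in wildtype to 15.9 to 29.1 FPKM in Has-tKO libraries (a difference of 0.97 log2 units, SE 0.19, adjusted p = 0.0284 by limma), but did not pass after scaling (0.75, adjusted p = 0.135). The thioredoxin reductase Txnrd1 was at 15.5 ± 5.56 and 30.8 ± 4.37 FPKM (1, adjusted p = 0.0563) and rose after scaling (0.79, adjusted p = 0.0436). Selenop, the plasma selenium carrier, had 24.3 ± 9.06 and 44.1 ± 9.25 FPKM (0.89, adjusted p = 0.109), Gpx4, a lipid peroxidase, 36.6 ± 6.29 and 38.9 ± 2.96 FPKM (0.10, adjusted p = 0.789, and -0.12 after scaling), and Secisbp2, which reads the selenocysteine signal, 1.37 ± 0.552 and 1.87 ± 0.616 FPKM (0.28, adjusted p = 0.535). Msrb1 passed in 3 of 8 fits with 1 library left out (without wildtype 1, wildtype 3 or Has-tKO 2; 0.0619 to 0.142 in the others).

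Cyclic AMP, the signal behind parathyroid hormone, is known to raise both Slpi and Dio2 in bone cells. The parathyroid hormone receptor Pth1r and the repressor Crem carry no name in the table. Of 47 tested genes of this pathway 4 rose and 0 fell, where 1.58% of all tested genes were called higher and 0.192% lower, with a median of 0.24 beside 0.16 for all tested genes. They were the adenosine receptor Adora2b (1.02 ± 0.522 to 4.44 ± 1.49 FPKM, 1.43 log2 units with SE 0.23, adjusted p = 0.0156 by limma), the prostacyclin receptor Ptgir (0.92, adjusted p = 0.0406), the adenylyl cyclase Adcy7 (0.99, adjusted p = 0.0394) and the phosphatase gene Dusp1 (0.87, adjusted p = 0.0203). After scaling Adora2b (adjusted p = 0.0186) and Adcy7 (0.0474) passed, Ptgir (0.0962) and Dusp1 (0.114) did not, and Ramp1, a receptor subunit, fell (-0.87, adjusted p = 0.0216; unscaled -0.71, adjusted p = 0.0550). Adora2b, Ptgir and Adcy7 are also made by macrophages, whose summed marker level was 390 to 667 FPKM in wildtype and 663 to 1070 FPKM in the Has-tKO libraries. The part of this shift in these 4 calls was not tested.

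Among known targets of cyclic AMP, the nuclear receptor gene Nr4a1, a fast target, had 0.505, 0.653, 0.224 and 0.629 FPKM in wildtype against 3.28, 0.990, 2.41 and 2.07 FPKM in Has-tKO. The groups did not overlap (exact permutation p = 0.0286, two-sided, the smallest that 4 against 4 can give, and 0.157 after adjustment over 11 low genes so tested). Among genes that passed the filter, 12.0% had every Has-tKO library higher. The phosphodiesterase Pde4b had 0.541 ± 0.258 and 1.10 ± 0.421 FPKM (exact permutation p = 0.0857). With 1 library left out Adora2b passed in 5 of 8 fits (not without wildtype 4, Has-tKO 1 or Has-tKO 4, at 0.0533 to 0.0802). Dusp1 (0.0523 to 0.112) and Ptgir (0.0776 to 0.164) were lost without wildtype 2 or 4 or Has-tKO 1, 3 or 4, and Adcy7 (0.0708 to 0.165) without these or Has-tKO 2.

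Retinoic acid, a signal upstream of Fibin in the fish fin, had 1 of 17 tested genes lower and 0 higher, beside 0.192% and 1.58% of all tested genes, with a median of 0.13 (-0.08 after scaling). Rbp4, the retinol carrier, had 8.67, 6.22, 5.35 and 9.56 FPKM in wildtype against 2.75, 3.26, 4.01 and 3.15 FPKM in Has-tKO. The groups did not overlap, as for 1.53% of all tested genes with every Has-tKO library lower. Rbp4 differed by -0.95 log2 units (SE 0.19, adjusted p = 0.0336 by limma, and 0.0467 after scaling). It did not pass with the replicate number as a block (limma adjusted p = 0.0515), and with 1 library left out it passed without wildtype 1 or wildtype 3 but in none of the other 6 fits (0.0529 to 0.157). Tgm2, a transglutaminase induced by retinoic acid, had 11.5 ± 3.58 and 21.5 ± 2.27 FPKM (0.89, adjusted p = 0.0572) and rose after scaling (0.68, adjusted p = 0.0277). Aldh1a2, the enzyme that makes retinoic acid in the embryo, was below the filter, with 0.330, 0.601, 0.456 and 0.604 FPKM in wildtype against 8.68, 6.26, 4.30 and 0.773 FPKM in Has-tKO. Every Has-tKO library lay above every wildtype library, by far in 3 and narrowly in Has-tKO 4 (exact permutation p = 0.0286, adjusted p = 0.157 over the 11 low genes). The same order held for 12.0% of the genes that passed the filter. The retinoic acid hydroxylase Cyp26b1 had 19.7 ± 5.68 and 15.5 ± 1.94 FPKM (-0.29, adjusted p = 0.495), and the receptor Rarb stayed at or below 0.0571 FPKM.

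Genes of limb bud initiation, the setting that names Fibin, had no called member. Over all tested genes 1.58% were called higher and 0.192% lower, so this count is near the background. Of 15 tested besides Fibin, 6 were positive and 9 negative, where 26.7% of all tested genes were negative. An unadjusted p below 0.05 was found for 3. Their median was -0.07 beside 0.16 for all tested genes, and -0.27 beside -0.01 after scaling. Tbx5, the forelimb factor that Fibin acts upstream of in the fish, stayed at or below 0.152 FPKM. The hindlimb factors Tbx4 and Pitx1 were both above the filter. Tbx4 had 5.12 ± 1.23 and 5.61 ± 0.781 FPKM (log2 fold change 0.13, limma adjusted p = 0.752, and -0.06 after scaling). Pitx1 had 7.96, 8.83, 6.82 and 9.03 FPKM in wildtype against 3.34, 6.91, 5.83 and 3.42 FPKM in Has-tKO (-0.68, SE 0.21, adjusted p = 0.126, and -0.88 after scaling, adjusted p = 0.0751). Its lowest libraries were Has-tKO 1 and 4, where Fibin was lowest too. Twist1, a mesenchymal factor, had 7.94 ± 1.97 and 7.96 ± 3.05 FPKM (-0.04, adjusted p = 0.952), and Fgf10, the limb bud growth factor, 0.432 ± 0.383 and 0.272 ± 0.205 FPKM (exact permutation p = 0.571).

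**Figure D4:**
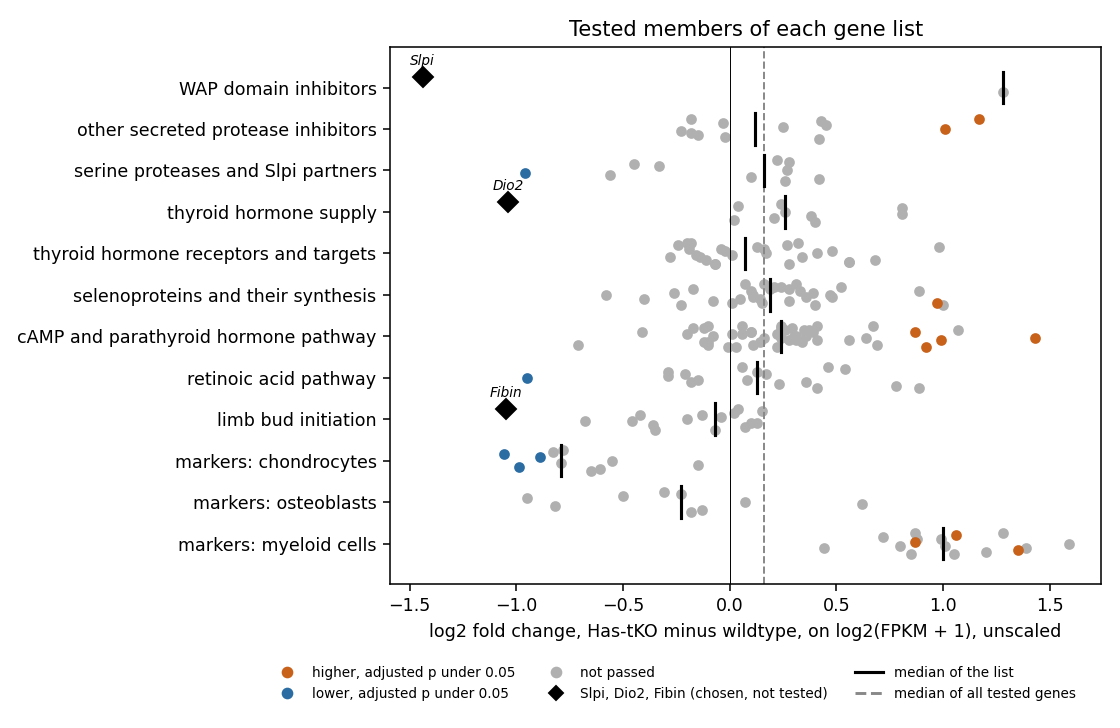
Unscaled log2 fold change (horizontal axis) of every tested gene reported in each list, with genes that passed in orange (higher) or blue (lower), the list median as a black bar and the median of all tested genes (0.16) dashed. Slpi, Dio2 and Fibin (black diamonds, chosen for their difference) lie left of all other tested genes of their own lists.

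Markers of other cell types moved with the genotype beside all 3 genes. The summed level of 17 named myeloid markers was 390 to 667 FPKM in wildtype against 663 to 1070 FPKM in Has-tKO. All 16 tested were positive, where 26.7% of all tested genes were negative. Of these markers 3 rose and none fell, beside 1.58% called higher and 0.192% lower of all tested genes. Ptprc, the common leukocyte antigen, lay at 1.49 to 4.69 and 4.97 to 7.45 FPKM. The sum of 11 osteoblast markers was 1650 to 2100 FPKM in wildtype against 1100 to 1500 FPKM in Has-tKO, with 0 of 9 tested called unscaled and 2 lower after scaling (1.18% of all tested genes). The sum of 12 chondrocyte markers was 214 to 349 and 178 to 249 FPKM, and 3 of 10 tested fell, with a median of -0.79. The part of these shifts in the levels of Slpi, Dio2 and Fibin was not tested, and in bulk RNA fewer cells of a type and less RNA per cell cannot be told apart.

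Markers of other cells known to make Slpi were mostly low. Of 16 neutrophil and mast cell markers, 7, Elane among them, were listed at 0 in all 8 libraries and 13 stayed below 1 FPKM in each. The other 3 were Lcn2, which other cells also make, at 4.16 to 14.8 FPKM in wildtype and 6.60 to 13.2 FPKM in Has-tKO, Camp at up to 3.10 FPKM and Csf3r at up to 1.84 FPKM. Of 11 epithelial markers, 5, Epcam among them, were at 0 throughout and 9 stayed below 1 FPKM. The basal keratins Krt5 (1.05 to 2.46 FPKM in wildtype and between 1.24 and 5.25 FPKM in Has-tKO) and Krt14 (0.486 to 2.53 FPKM and 1.32 to 5.34 FPKM) were above 0 in all 8 libraries. The part of these cells in the level of Slpi was not tested. The stromal markers Pdgfra (12.4 to 20.6 FPKM) and Thy1 (11.7 to 25.0 FPKM) and the osteoblast factor Runx2 (3.36 to 7.39 FPKM) were present in all 8 libraries. The endothelial marker Pecam1 stayed at or below 0.444 FPKM, and Pparg, the fat cell regulator, lay at 1.43 to 3.03 FPKM.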

How the data were processed

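RNA from 8 MSc cultures, 1 per mouse, was sequenced after ribosomal RNA depletion and Nextera tagmentation, per the labels' protocols, which keeps no strand information. Per the file headers, the values deposited by the authors are FPKM per locus. The submitters' processing notes name bcl2fastq, fastp, HISAT2, StringTie and DESeq2 and the builds GRCm39 and hg38. No version is named, nor what hg38 was used for, nor how loci were built from transcripts.

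Named loci (49868 of 76557) reaching 1 FPKM in 4 or more of the libraries entered the fit on log2(FPKM + 1) with limma 3.58.1 in R 4.3.3 (genotype, trend, two-sided, Benjamini-Hochberg over 9916 genes, threshold 0.05). Fold changes on this scale understate low genes. Loci without a name were not analysed here, and 1 gene of the thyroid hormone supply list is not reported here and is left out of that list's counts. Size factors are median ratios over 9772 tested loci above 0 in every library. Where a name stood on several loci, the one with the highest mean was used. Genes below the filter were compared by an exact permutation test over 8 libraries, adjusted over the 11 anchor genes so tested. The fit was first tested on simulated data with known changes. Transcript lengths for the depth check and overlaps came from GENCODE M21 and neighbours and promoters from RefSeq (both GRCm38), matched by identifier or symbol. All 3 promoters were found.

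The members, lists and motifs were chosen with earlier results of these data, or the sequences, in view. The named genes are the 3 members, fixed anchor genes of each pathway, list genes past the threshold unscaled or after scaling, the 3 nearest profiles and the 2 nearest named genes on either side. Other list members given as values were chosen after their values were seen. Alternatives were scaling, a pseudocount of 0.1, no filter, a replicate block and leaving out libraries.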

Additional observations from a re-analysis of the deposited data

Results flagged for a closer look

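In a group of 4 libraries, a library was marked when its gap to the nearest other was a larger share of the whole range of the group than Dixon's critical value allows. Chance marks about 5% of groups, and 11 of 123 were marked. Slpi in wildtype was marked (0.895) for wildtype 1 at 23.2 FPKM beside 14.8 to 15.7 FPKM, and Fibin in wildtype (0.858) for wildtype 4 at 3.56 FPKM beside 2.68 to 2.81 FPKM. Without wildtype 1 the log2 fold change of Slpi was -1.29, and without wildtype 4 that of Fibin was -0.98. Wildtype 1 was also the low library for Klf9 (0.940, 3.80 FPKM beside 6.28 to 6.44 FPKM) and Pdgfra (0.835, 12.4 FPKM beside 19.1 to 20.4 FPKM), and the high one for Crabp2, a retinoic acid carrier (0.842, 1.63 FPKM beside 0 to 0.258 FPKM). Wildtype 3 was high for Fgf10 (0.915) and Rarb (0.969) and low for Thy1 (0.867), wildtype 2 was low for Sys1 (0.956), and among the Has-tKO libraries 1 alone was above 0 for Wfdc2 (1.0, at 0.1 FPKM) and for Rarb (1.0, at 0.0196 FPKM).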

How the results depend on the processing

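The 3 members kept their negative sign in all 36 alternative values. They were chosen as lower, and no Has-tKO library reached a wildtype library unscaled or scaled, so no setting could turn the sign. The widest change came from a pseudocount of 0.1, with log2 fold changes of -1.57 for Dio2 and -1.65 for Fibin. With 1 library left out the range was -1.56 to -1.20 for Slpi, -1.22 to -0.93 for Dio2 and -1.14 to -0.95 for Fibin. Counts of called genes depended on the setting. Over all tested genes 157 were higher and 19 lower. There were 117 lower after scaling, 96 higher with a pseudocount of 0.1, 2 higher and 0 lower with no filter, and 87 lower without wildtype 1 and Has-tKO 4. With 1 library left out, 5 to 327 were higher and 0 to 98 lower, and the numbers higher were 10 without wildtype 4 and 5 without Has-tKO 1, with 0 lower each.

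By list, with no filter the counts were 0 higher for the other protease inhibitors, selenoproteins, cAMP genes and myeloid markers, and 0 lower for serine proteases and retinoic acid genes. A pseudocount of 0.1 gave 1 higher among the other protease inhibitors, 2 among cAMP genes and 0 among myeloid markers. Scaling gave 1 higher for thyroid hormone supply, 2 higher and 1 lower for cAMP genes and 1 higher for retinoic acid genes. Without wildtype 1 and Has-tKO 4 there was 1 lower in each of cAMP genes and limb bud genes, 1 higher among retinoic acid genes and 5 higher among myeloid markers. With 1 library left out, the numbers higher were 0 to 1 for WAP inhibitors, hormone receptors and targets and retinoic acid genes, 0 to 2 for other inhibitors and hormone supply, 0 to 3 for selenoproteins, 0 to 6 for cAMP genes and 0 to 13 for myeloid markers, and those lower were 0 to 1 for other inhibitors, serine proteases, cAMP, retinoic acid and limb bud genes. The causes were not tested. No named gene reversed direction with a call.

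Replicate numbers 1 to 4 name different mice. Deviations from the group means correlated at -0.0825, 0.311, -0.121 and -0.0587 for the 4 same-numbered pairs. Differently numbered pairs ran from -0.338 to 0.336. The labels state no pairing, and whether same-numbered libraries were handled together was not tested. With the replicate block 120 genes were higher and 27 lower, 1 WAP inhibitor was higher, 2 cAMP genes were higher and 0 retinoic acid genes were lower, and no other list count moved by over 1.5 times.

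With 4 mice per genotype, single libraries ended most calls, so a gene that did not pass is not shown to be equal. The gigabase totals rest on reading the step of low values as 1 aligned base, and no interval for counting error is given.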

Other observations

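Several low genes of the same pathways, picked after their values were seen, had a higher mean in Has-tKO and lay below the filter. The protease gene Htra4 had 0.230 FPKM on average in wildtype and 1.08 FPKM in Has-tKO, the hormone and anion transporter Slco4a1 0.527 and 1.44 FPKM, the cAMP target Nr4a3 0.224 and 1.04 FPKM, and the retinoic acid carrier Crabp1 0.724 and 1.95 FPKM. The protease inhibitor gene Spink5 went the other way, with 1.11 and 0.557 FPKM. These are values only and none was tested.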
